A study of Mus musculus with 2 samples.

Results

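The colony-stimulating factors (CSFs) and their receptors were the 9 genes Csf1, Csf2, Csf3, Il34, Csf1r, Csf2ra, Csf2rb, Csf2rb2 and Csf3r. They were taken by name from a table of 20003 genes, and all 9 were listed with reads. RNA was sequenced from 2 libraries of cells labelled RAW 264.7, an established mouse macrophage line from a tumour of a male mouse. Per the labels, cells of both libraries were given macrophage colony-stimulating factor (M-CSF, the product of Csf1) at 20 ng/mL and interleukin 4 (IL-4) at 10 ng/mL. This treatment is meant to give the alternatively activated, or M2, state. Cells labelled M2+GANT61 also had 10 µM GANT61, a small molecule that inhibits the GLI transcription factors of Hedgehog signalling. Cells labelled M2+DMSO had its solvent. Either agent came 4 h before IL-4, and the labels give the time with IL-4 as both 15 min and 24 h. The series asked how blocking Hedgehog signalling changes the macrophage transcriptome.

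CSFs are secreted proteins that keep myeloid cells alive and drive them to divide and mature. M-CSF and IL-34 are unlike in sequence but bind the same receptor tyrosine kinase, CSF1R, on which most macrophages depend. GM-CSF, from Csf2, binds an alpha chain from Csf2ra paired with the common beta chain from Csf2rb, which also serves interleukins 3 and 5. In mice a copy of that gene, Csf2rb2, encodes a beta chain that serves interleukin 3. G-CSF, from Csf3, acts through CSF3R, best known from neutrophils. The beta chains and CSF3R signal through JAK kinases and STAT factors. Reads of Csf1 count the cells' own transcript, and M-CSF protein added to the medium gives no reads.

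The libraries held 57705874 reads (M2+GANT61) and 61632784 reads (M2+DMSO), as rounded expected counts. Each group is a single library, so the values have no replicate check, no test between conditions was made, and each 95% interval below covers counting error only. A count of 0 would allow up to 3 counts, or 0.0520 and 0.0487 CPM (counts scaled to a common library size). Macrophage transcripts were abundant in both libraries, and so were transcripts that macrophages are not known for. Lyz2, a macrophage lysozyme, stood at 1177 CPM (M2+DMSO) and 2477 CPM (M2+GANT61), and the fibrillar collagen gene Col3a1 at 3044 and 3394 CPM. The Xist RNA, which coats the silenced X chromosome of female cells, had 10002 and 15246 reads. Pycard, an inflammasome adaptor that RAW 264.7 cells are known to lack, had 1267 and 2039 reads. Xist and Pycard go against the label of a male line without that adaptor, so the libraries are named here by their labels. In such bulk RNA, fewer cells of a type and less RNA per cell cannot be told apart.

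Most CSF genes, and all 5 receptor chains, were higher in the M2+GANT61 library, but with macrophage genes setting the scale 4 genes were higher: Csf3, Csf2rb, Csf2rb2 and Csf3r. A gene was called higher where its ratio of scaled counts, M2+GANT61 over M2+DMSO, was at least 1.5, its interval excluded 1 and its mean level was at least 1 CPM, and lower by the inverse. Of the 9 genes, 7 were higher, 0 lower and 2 neither. Among the 7, Csf2 met the floor only through the M2+GANT61 library, at 0.879 CPM (M2+DMSO) and 1.39 CPM (M2+GANT61). Of 13939 genes that reached 1 CPM, 14.1% were higher, 10.3% were lower and 24.4% were either. The median log2 ratio was 1.38 over the 9 genes and -0.01 over all genes considered. All 5 receptor chains were higher, as were 2 of the 4 ligands. Macrophage genes were higher beside them: the 16 genes used for this comparison, none of them a CSF gene, had ratios from 1.31 (Aif1) to 3.36 (Cd68) and a median ratio of 1.97. Their part in the CSF ratios was not tested. When the counts were scaled so that this macrophage median became 1, Csf1r, Csf2ra and Csf2 lost their calls, with ratios of 1.32, 1.22 and 0.801. Il34 was then called lower, at 0.402, and Csf1, at 0.753, stayed uncalled.

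**Figure D1:**
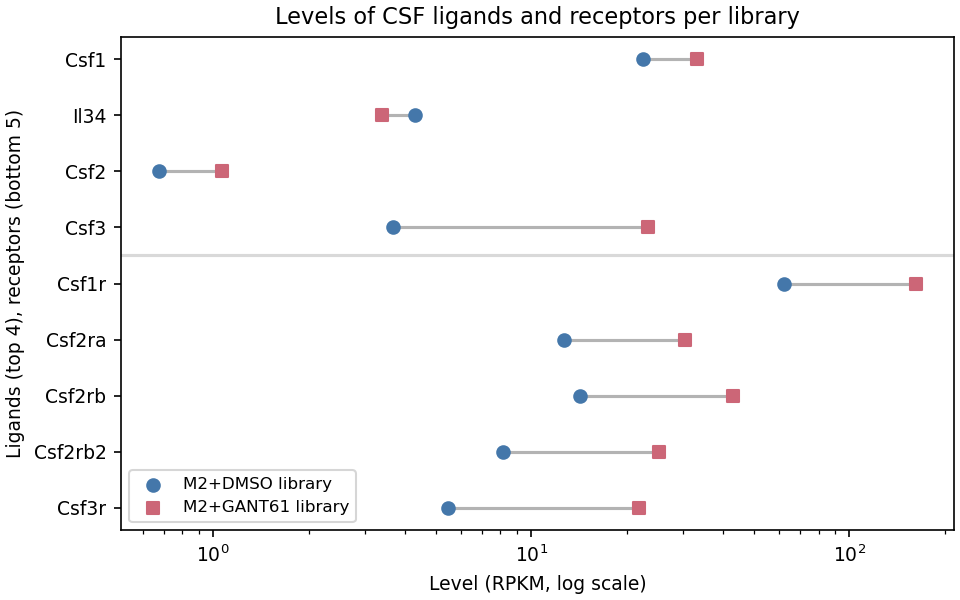
Levels of the 9 CSF genes in RPKM (the authors' values, scaled by gene length and library depth, log axis), with 1 point for each library and no error, since each group is 1 library. Il34 is the only gene whose M2+GANT61 point lies left of its M2+DMSO point, and Csf1r is the highest gene in both libraries.

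**Figure D2:**
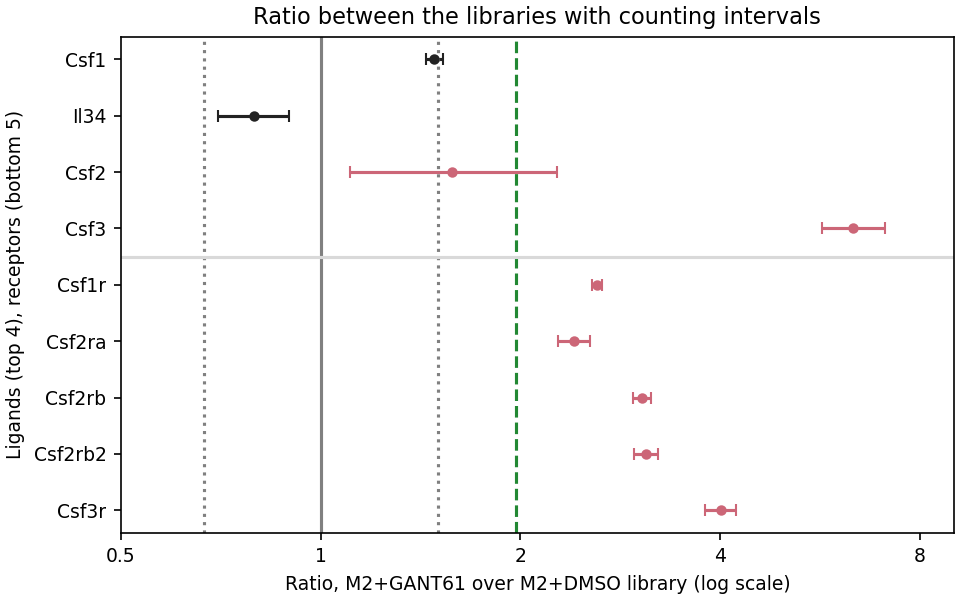
Ratio of each gene, M2+GANT61 over M2+DMSO library (log axis), with 95% counting intervals, and red for the 7 genes called higher. Dotted lines mark the threshold of 1.5 and its inverse, and the dashed line marks the median ratio of 16 macrophage genes, 1.97, with Csf1, Csf2 and Il34 to its left.

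Csf1r, the receptor for M-CSF and IL-34, was the most abundant of the 9 genes per length. It had 19043 reads in the M2+DMSO library and 45123 in the M2+GANT61 library. Its level was 62.3 and 162 RPKM, so it ranked 969th and 333rd among all genes listed. The ratio was 2.61 (2.57 to 2.65), higher than 96.1% of the genes considered. Among the 16 macrophage genes, 12 had a smaller ratio than Csf1r. The ratio of Csf1r was 1.32 times their median, so it was not called higher when that median was set to 1. Exons of Csf1r overlap those of Hmgxb3 on the other strand in the annotation, and 16.4% of its 50-base words also occur in Hmgxb3 transcripts. Hmgxb3 had 2035 and 2298 reads, a ratio of 1.24 (1.17 to 1.32). Reads from that overlap cannot be told apart without strand, and the level of Hmgxb3, 4.96 and 6.14 RPKM, was far below that of Csf1r in both libraries.

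The chains of the GM-CSF receptor were higher as well, and the beta chains by more than the alpha chain. Csf2ra, the alpha chain that gives the receptor its specificity for GM-CSF, had 1850 reads (M2+DMSO) and 4048 reads (M2+GANT61), or 12.7 and 30.4 RPKM. Its ratio was 2.41 (2.28 to 2.55), and 1.22, not called, with the macrophage median set to 1. Csf2rb, the signalling chain shared with the interleukin 3 and 5 receptors, had 5465 and 15153 reads, or 14.2 and 43.2 RPKM, and a ratio of 3.05 (2.96 to 3.15). Csf2rb2 had 3048 and 8566 reads, or 8.15 and 25.1 RPKM, and a ratio of 3.09 (2.97 to 3.23). Per length, Csf2rb stood at 1.12 times Csf2ra in the M2+DMSO library and 1.42 times in the M2+GANT61 library. The ratio of Csf2rb was 1.27 times that of Csf2ra (1.19 to 1.35), a difference beyond counting error between these libraries.

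Csf2rb and Csf2rb2 are neighbouring copies on opposite strands of mouse chromosome 15, at 78325752 to 78353847 (plus) and 78282507 to 78305721 (minus) in GRCm38, which is mm10, with 20031 bases between them. Their coding sequences, of 2688 and 2634 bases, were identical at 95.2% of 2628 aligned bases and differed at 125. The differences were uneven. The stretch of 120 bases with the most differences is shown because reads from it tell the copies apart, with the 16 differing bases in capitals. It is chr15:78338867-78338986 (plus strand) in Csf2rb and chr15:78294345-78294464 (minus strand) in Csf2rb2, both within 1 exon.
Csf2rb: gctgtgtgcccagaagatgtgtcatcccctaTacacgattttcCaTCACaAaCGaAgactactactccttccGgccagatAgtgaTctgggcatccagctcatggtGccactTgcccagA
Csf2rb2: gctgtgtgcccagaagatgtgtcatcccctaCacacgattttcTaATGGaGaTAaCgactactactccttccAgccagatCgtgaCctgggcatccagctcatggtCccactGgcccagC
The longest stretch without a difference, 242 bases, is shown because no read inside it can be assigned by sequence. It spans chr15:78348577-78348818 in Csf2rb and chr15:78284630-78284871 in Csf2rb2.
Both copies: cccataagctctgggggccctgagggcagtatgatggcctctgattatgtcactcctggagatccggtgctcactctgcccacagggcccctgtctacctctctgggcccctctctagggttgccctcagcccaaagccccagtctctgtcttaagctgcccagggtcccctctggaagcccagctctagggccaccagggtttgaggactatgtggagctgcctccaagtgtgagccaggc
Over whole coding transcripts, 17.1% of the 50-base words of Csf2rb also occur in Csf2rb2, and 18.8% the other way. With 100-base words the shares were 6.46% and 7.05%. The deposited counts of both genes were not whole numbers, and reads may have been split between the copies, so the separate levels are uncertain. The level of Csf2rb2 per length was 0.574 times that of Csf2rb in the M2+DMSO library and 0.582 times in the M2+GANT61 library. The ratios of the copies differed by a factor of 1.01 (0.963 to 1.07). With the reads of both copies summed, 8513 and 23719, the ratio was 3.07 (2.99 to 3.15), a value that does not depend on how reads were split between the copies.

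**Figure D3:**
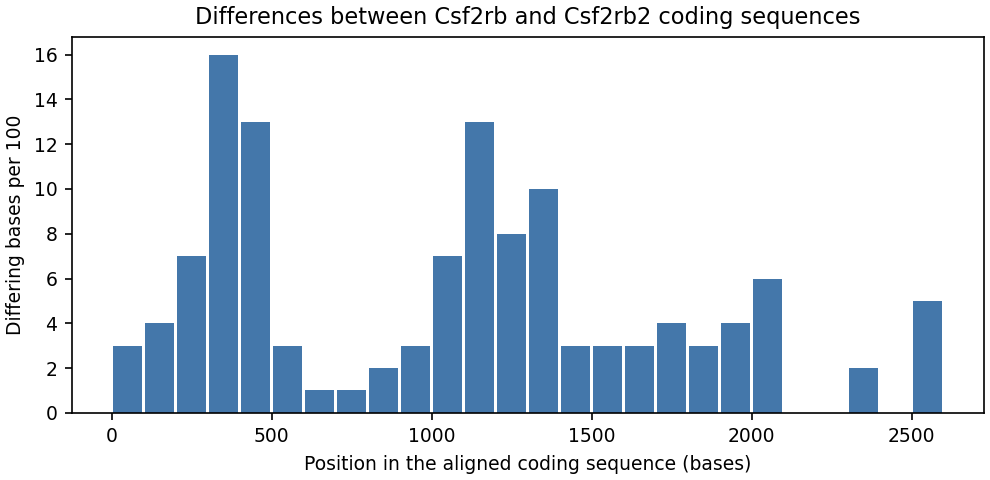
Number of differing bases in each full block of 100 aligned coding bases of Csf2rb and Csf2rb2 (bars from 0), along the coding sequence from its start. Blocks range from 0 to 16 differences, so short reads can be assigned to a copy in some blocks and not in others.

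Csf3r, the G-CSF receptor, had the largest ratio of the 5 receptor chains. It had 1749 reads in the M2+DMSO library and 6367 in the M2+GANT61 library, or 5.48 and 21.9 RPKM. The ratio was 4.01 (3.80 to 4.23), higher than 98.5% of the genes considered. It was above the ratios of the 16 macrophage genes, which leave out the macrophage receptor genes Mrc1 and Cd163, whose ratios of 5.54 (5.46 to 5.62) and 9.02 (8.83 to 9.22) were larger. It was 2.03 times the macrophage median. Of the 50-base words of Csf3r, 11.4% occur in other genes' transcripts, and of its 100-base words 0.411%. The ratio of Csf3r was 1.54 times that of Csf1r (1.45 to 1.62). Neutrophil markers were higher beside it: of 12 in the list, 8 reached 1 CPM, of which 6 were higher and 1 lower. Over all genes considered, 14.1% were higher and 10.3% lower. The summed level of the list was 303 and 1340 CPM. Mmp9, a gelatinase, stood at 139 and 595 CPM and Ltf, the iron-binding lactoferrin, at 93.1 and 403 CPM. Together they held most of the list's summed level in both libraries. Cxcr2, a chemokine receptor of neutrophils, had 335 and 1871 reads. The calprotectin genes S100a8 and S100a9 had 979 and 4655 reads and 1740 and 10462 reads, and the collagenase gene Mmp8 had 134 and 1215. Retnlg, with 1070 and 1092 reads, was not called, and Ngp, a granule protein gene with 123 and 65 reads, was the 1 called lower. Below 1 CPM were Ly6g, a surface marker of mature neutrophils, with 13 and 31 reads, and the granule genes Camp, with 21 and 11, Mpo, with 39 and 22, and Elane, with 6 and 3, of which Mpo and Elane mark granulocyte precursors. The part of neutrophils in the Csf3r ratio was not tested.

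The ligands of CSF1R did not meet the rule in either direction, but Il34 was called lower with the macrophage median set to 1. Csf1 had 7835 reads (M2+DMSO) and 10551 reads (M2+GANT61), or 22.5 and 33.2 RPKM. Its ratio was 1.48 (1.44 to 1.53), just under the threshold, and 0.753 with the macrophage median set to 1. Il34 had 631 and 454 reads, or 4.30 and 3.39 RPKM. Its ratio was 0.793 (0.701 to 0.895), the only one of the 9 below 1, and its interval excluded 1. With the macrophage median set to 1 it was 0.402. In each library Csf1 stood above Il34 per length, by 5.22 times (M2+DMSO) and 9.77 times (M2+GANT61). The ratios of the ligands differed by a factor of 1.87 (1.65 to 2.12). Set against their receptor, Csf1 was at 0.361 times and 0.205 times the level of Csf1r per length, and Il34 at 0.0691 and 0.0210 times. Sdc1 and Ptprz1, which encode other proteins that IL-34 binds, had 15131 and 23001 reads and 25 and 41 reads.

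Csf3 showed the largest ratio of all 9 genes, and Csf2 was close to the floor of 1 CPM. Csf3, which encodes G-CSF, had 396 reads in the M2+DMSO library and 2282 in the M2+GANT61 library. This was 3.68 and 23.3 RPKM, a ratio of 6.34 (5.70 to 7.08), higher than 99.4% of the genes considered. Csf3 lies on chromosome 11 at 98701263 to 98703629, plus strand (GRCm38), and shared none of its 50-base words with other genes. Its ratio was 1.58 times that of its receptor Csf3r (1.40 to 1.78), and per length it stood at 0.672 times Csf3r in the M2+DMSO library and 1.06 times in the M2+GANT61 library. Csf2, which encodes GM-CSF, had 55 and 79 reads, or 0.675 and 1.06 RPKM. Its ratio was 1.58 (1.11 to 2.27), called higher with a mean of 1.13 CPM. Its level was 0.879 CPM in the M2+DMSO library, below the floor, and 1.39 CPM in the M2+GANT61 library. That call was lost with a floor of 5 CPM and with a fold threshold of 2, and with the macrophage median set to 1 the ratio was 0.801. Csf2 also overlaps the gene model Gm12223 on the other strand, with 6.39% of its 50-base words in common.

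Per length, the order of the genes was nearly the same in both libraries. From the highest in the M2+DMSO library it ran Csf1r, Csf1, Csf2rb, Csf2ra, Csf2rb2, Csf3r, Il34, Csf3 and Csf2. The counting intervals of neighbours in this order overlapped only for Il34 and Csf3. In the M2+GANT61 library Csf2rb stood above Csf1, and Csf3 stood above Csf3r and Il34. There the intervals overlapped only for Csf3 and Csf3r. Replicate spread could widen any of these intervals and was not measured.

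The make-up of the ligand transcripts differed more between the libraries than that of the receptor transcripts. Csf1 took 72.2% of the summed RPKM of the 4 ligands in the M2+DMSO library and 54.5% in the M2+GANT61 library. Csf3 took 11.8% and 38.2%, and Il34 took 13.8% and 5.57%. Among the 5 receptor chains, Csf1r took 60.6% and 57.3%, and Csf3r took 5.33% and 7.74%. The summed RPKM was 31.1 and 60.9 for the ligands and 103 and 282 for the receptor chains.

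**Figure D4:**
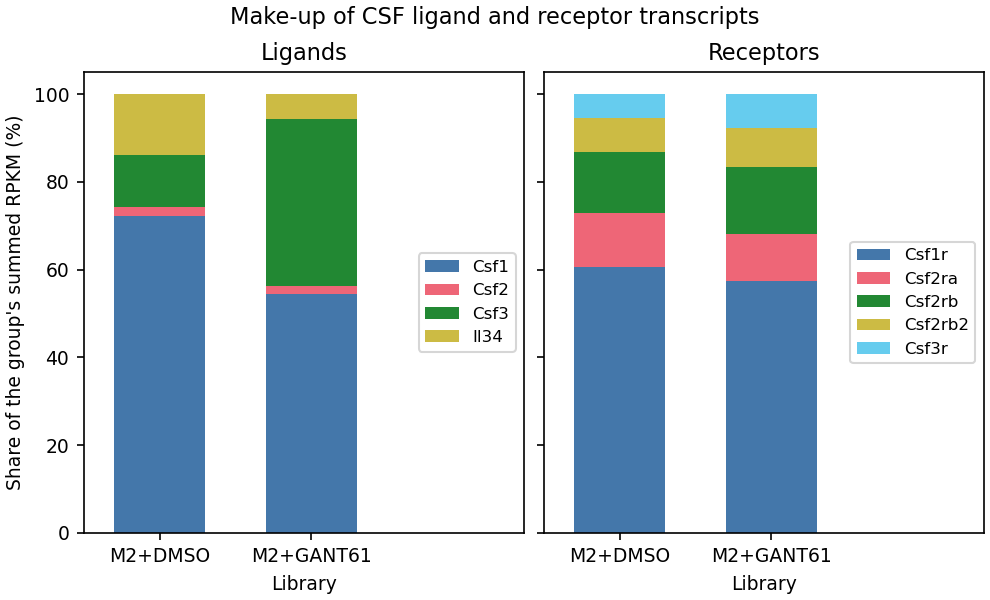
Share of each gene in the summed RPKM of the 4 ligands (left) and of the 5 receptor chains (right), with 1 stacked bar for each library on an axis from 0 to 100%. The Csf3 part of the ligand bar is 11.8% in M2+DMSO and 38.2% in M2+GANT61, while the Csf1r part of the receptor bar is 60.6% and 57.3%.

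Promoter sequences were at hand for 5 of the 9 genes: Csf1, Csf2, Csf2ra, Csf2rb2 and Csf3r (RefSeq, GRCm38.p6, 250 bases before to 50 after the start). They were searched on both strands for short motifs of factors tied to these genes or to the study. The core GAGGAA of ETS family factors, to which the macrophage regulator PU.1 belongs, occurred in the windows of Csf2ra, Csf2rb2 and Csf3r and in 28.3% of all 32851 windows. It did not occur in those of Csf1 and Csf2, and 4 of the 5 windows, that of Csf2 included, belong to genes called higher. In Csf2ra 2 copies stood side by side from base -14 to base -3 before the start. The cyclic AMP response element TGACGTCA occurred in Csf2ra and in 1.79% of all windows. The NF-kappaB consensus occurred in Csf1 and in 4.51% of all windows, and the C/EBP motif TTGCNNAA in Csf2 and in 10.8%. The AP-1 motif TGANTCA, the TATA box TATAAA and the GLI motif GACCACCCA occurred in none of the 5 windows, and in 7.81%, 13.6% and 0.253% of all windows. The Csf2 window, chr11:54249850-54250149 (minus strand), lies wholly before the GENCODE start of Csf2 at 54249667. Bases next to that start were not searched, so motifs missing from the Csf2 window are not shown to be missing there. Other than the ETS core, no motif occurred in more than 1 of the 5 windows. The parts before the start, outside annotated exons, are shown for 2 receptor chains called higher and for Csf1, which was not, with motifs in capitals. These are the cyclic AMP response element in Csf2ra (chr19:61228430-61228668, minus strand), the ETS core on the opposite strand in Csf2rb2 (chr15:78305722-78305971, minus strand) and the NF-kappaB consensus on the opposite strand in Csf1 (chr3:107760470-107760719, minus strand).
Csf2ra: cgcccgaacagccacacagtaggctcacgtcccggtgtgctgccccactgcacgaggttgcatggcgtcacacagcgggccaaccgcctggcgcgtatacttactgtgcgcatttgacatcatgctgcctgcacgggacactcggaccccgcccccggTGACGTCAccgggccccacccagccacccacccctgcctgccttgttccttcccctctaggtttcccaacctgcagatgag
Csf2rb2: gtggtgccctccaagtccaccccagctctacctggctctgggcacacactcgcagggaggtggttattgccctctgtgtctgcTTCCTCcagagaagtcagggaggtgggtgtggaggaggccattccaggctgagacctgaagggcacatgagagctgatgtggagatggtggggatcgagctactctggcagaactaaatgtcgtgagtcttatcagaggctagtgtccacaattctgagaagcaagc
Csf1: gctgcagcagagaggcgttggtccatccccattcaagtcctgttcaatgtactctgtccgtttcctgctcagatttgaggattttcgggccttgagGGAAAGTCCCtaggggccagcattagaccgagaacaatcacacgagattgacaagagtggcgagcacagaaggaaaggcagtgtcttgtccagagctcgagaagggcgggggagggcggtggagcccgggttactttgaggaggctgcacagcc
A match of letters is a description and shows no binding in these cells.

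Relatives of the CSF receptors and their ligands held a few calls in both directions, with the ligand gene Kitl as the only one lower. Over all genes considered, 14.1% were higher and 10.3% lower. With the macrophage median set to 1, each log2 ratio is smaller by 0.98, so lists below with a median under that value would turn negative. Of the interleukin 3 and 5 ligands and alpha chains, which use the same beta chains, 3 of 4 reached 1 CPM and 2 were higher. Il5 had 21 and 136 reads and so a ratio of 6.99 (4.48 to 11.9). At 0.336 CPM (M2+DMSO) and 2.39 CPM (M2+GANT61), it met the floor only through the library where it was high. For Il5ra, with 113 and 232 reads, the ratio was 2.26 (1.80 to 2.86). Il3 had 4 and 3 reads, and Il3ra had a ratio of 1.20 (1.07 to 1.33). Of 8 relatives of CSF1R and their ligands, the class III receptor tyrosine kinases, 1 was higher and 1 lower. Both counts were near the shares over all genes considered. Flt3, a receptor of dendritic cell precursors, had a ratio of 2.69 (2.37 to 3.07). Kitl, the stem cell factor, had 12405 and 4024 reads, a ratio of 0.357 (0.345 to 0.370). Pdgfrb, which lies next to Csf1r in the genome, had a ratio of 1.32 (1.26 to 1.37) and was not called. Ncf4, a subunit of the phagocyte oxidase and the neighbour of Csf2rb2, had a ratio of 1.91 (1.82 to 2.01) and was called higher.

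Partners and regulators of CSF1R were mixed too, beside 14.1% higher and 10.3% lower over all genes considered. Tyrobp, Mertk and Spi1 of these lists also belong to the 16 macrophage genes. Of 6 genes for proteins that bind IL-34 or work with CSF1R, 5 reached 1 CPM and all 5 were higher. They included Trem2, a lipid-sensing receptor, at a ratio of 2.43 (2.32 to 2.54), Itgb3, an integrin beta chain, at 2.26 (2.14 to 2.38) and Tyrobp, the signalling adaptor of TREM2, at 2.18 (2.12 to 2.24). Of 10 transcription factors known to bind Csf1r or to act in myeloid development, 3 were higher and 1 lower, and their median log2 ratio was 0.17. Spi1, which encodes PU.1, had a ratio of 1.87 (1.80 to 1.94), Egr2 of 2.13 (1.97 to 2.30) and Mitf, an osteoclast and melanocyte factor, of 1.55 (1.43 to 1.68). For Cebpa, a factor of granulocytes and monocytes and also of adipocytes, it was 0.553 (0.536 to 0.570). Beside it stood adipocyte markers, with 10 of 10 called lower and a summed level of 6274 and 986 CPM, and their part in the Cebpa ratio was not tested.

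Signalling genes downstream of the receptors were higher or not called, with 1 exception. The shares over all genes considered were 14.1% higher and 10.3% lower. Of 20 kinases, adaptors and phosphatases close to CSF1R, 9 were higher and 0 lower, and the median log2 ratio was 0.47. Fgr, a Src family kinase of myeloid cells, had a ratio of 3.02 (2.83 to 3.23), Cbl, a ubiquitin ligase that acts on activated CSF1R, of 2.69 (2.50 to 2.89) and Syk, a kinase recruited by TYROBP, of 2.57 (2.48 to 2.67). Of 20 genes of the JAK and STAT arm, 5 were higher and 1 lower, and the median log2 ratio was 0.36. The cytokine gene Osm had a ratio of 4.67 (4.19 to 5.24), Irf4, a factor of M2 polarization, of 2.86 (2.64 to 3.09) and Shc1, an adaptor, of 0.645 (0.625 to 0.666). The kinase gene Jak2 and the STAT genes Stat5a and Stat5b, which carry the GM-CSF signal, were not called, at 0.750 (0.738 to 0.762), 0.924 (0.879 to 0.971) and 1.24 (1.20 to 1.29). Socs3, a feedback inhibitor of G-CSF signalling, had 5198 and 11362 reads, and Cish, a feedback gene of STAT5, had 4109 and 4178 reads.

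Genes known to raise, destabilize or process CSF transcripts and proteins were also counted, beside 14.1% higher and 10.3% lower over all genes considered. Of 16 genes of inducing cytokines, receptors and NF-kappaB factors, 15 reached 1 CPM, of which 9 were higher and 0 lower. The interleukin genes Il1a, with 1106 and 9367 reads, and Il1b, with 2500 and 13299, and the gene Tnf, with 161 and 487, had the largest ratios of the list, and Il17a had 0 and 1 reads. Of 10 genes for proteins that bind AU-rich or stem-loop elements of cytokine mRNA, 1 was higher, near the general share. Their median log2 ratio was -0.07. The 1 called was Zc3h12a, with 662 and 1929 reads, while Zfp36, which promotes decay of Csf2 mRNA, had a ratio of 0.893 (0.863 to 0.925). Of 5 genes of receptor and ligand processing, 3 were higher: Adam17, the protease that sheds CSF1R, at 1.74 (1.69 to 1.80), Furin, a convertase, at 1.74 (1.69 to 1.78) and Rhbdf2, a cofactor of ADAM17, at 1.67 (1.59 to 1.75).

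Cells other than macrophages can also carry CSF receptors or secrete CSFs, and their markers differed by type. Over all genes considered, 14.1% were higher and 10.3% lower, so 1 call in a list of 7 to 10 is near the general share. Of 8 dendritic cell markers 5 were higher (summed level 128 and 305 CPM), among them Itgax at 60.7 and 174 CPM and Cd209a at 23.1 and 50.7 CPM. Zbtb46, Xcr1 and Clec9a were not called, at ratios of 0.989 (0.858 to 1.14), 0.787 (0.677 to 0.912) and 0.805 (0.681 to 0.950). Of 8 mast cell and basophil markers 3 were higher (91.6 and 121 CPM): Fcer1a, Mcpt8 and Ms4a2, at ratios of 2.44, 3.60 and 3.69. The 2 most abundant, Kit at 31.9 and 31.2 CPM and Mcpt4 at 14.2 and 21.2 CPM, were not called. T and natural killer cell markers gave 3 of 10 higher (202 and 260 CPM): Cd4, Klrb1c and Il7r, the last at 24.5 and 57.2 CPM. Lck, at 35.0 and 37.5 CPM, was not called. Neither were Cd3e, Cd3d, Cd3g and Cd8a, at ratios of 0.997, 1.09, 0.948 and 0.721. B cell markers gave 1 of 7 higher (335 and 1314 CPM), the antibody joining chain gene Jchain at 225 and 1198 CPM, with Cd79a at 30.4 and 28.8 CPM. Fibroblast markers gave 0 higher and 1 lower of 10 (9856 and 9992 CPM), and endothelial markers 0 higher and 3 lower of 9 (664 and 561 CPM). Those called lower were Postn of the fibroblast list, at a ratio of 0.613, and Cldn5, Tek and Egfl7 of the endothelial list, at 0.471, 0.571 and 0.652. Not called were Col1a2 at 1900 and 2057 CPM, Pecam1 at 197 and 217 CPM and Cdh5 at 148 and 114 CPM. Epithelial markers gave 1 higher and 1 lower of 10 (3880 and 3404 CPM). Krt5, at 102 and 319 CPM, was higher, Krt18, at 946 and 551 CPM, was lower, and Krt8, at 796 and 571 CPM, was not called. Of 15 macrophage markers, Csf1r among them, 14 were higher (3738 and 10285 CPM), with Mrc1 at 363 and 2011 CPM, and the adipocyte genes Car3 and Fabp4 were at 2207 and 294 CPM and at 1802 and 286 CPM. Which cells held the CSF transcripts was not tested.

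**Figure D5:**
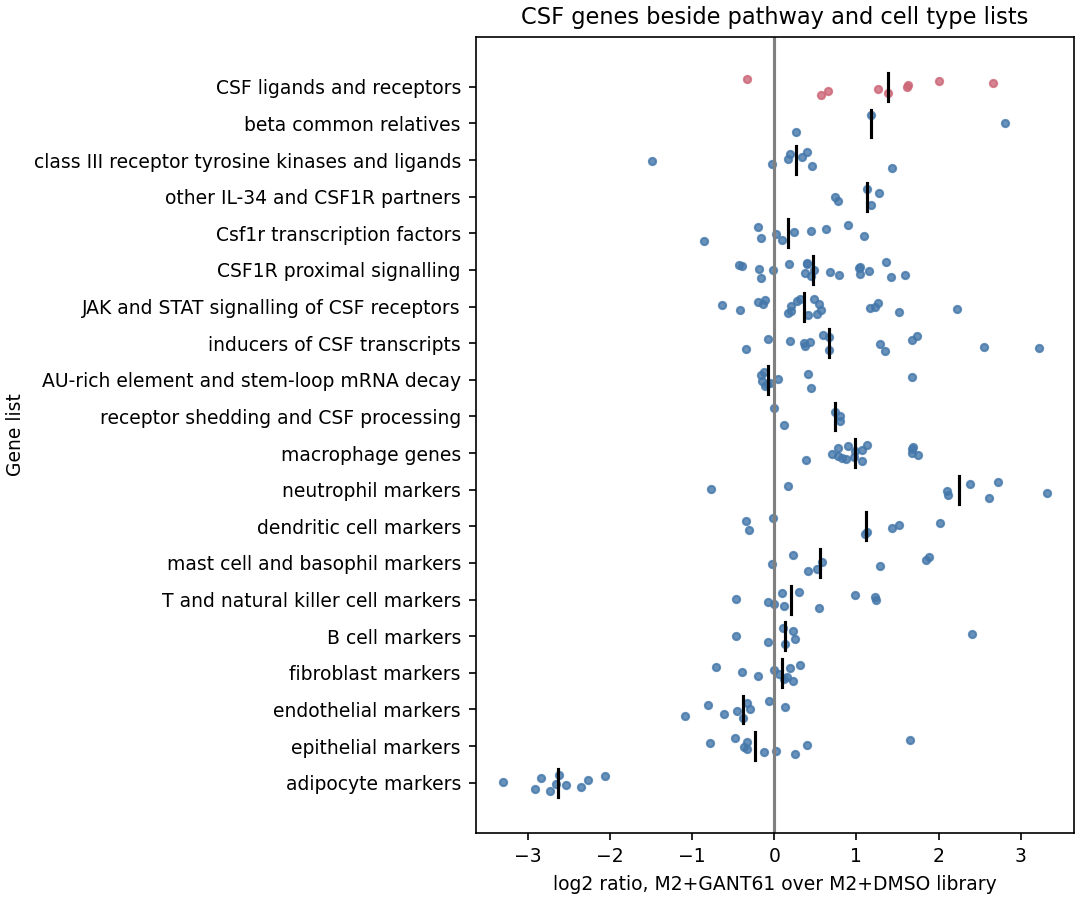
The log2 ratio, M2+GANT61 over M2+DMSO library, of each gene that reached 1 CPM in each list (points), with the list's median (black bar). The CSF genes (red) have a median of 1.38 beside 0.98 for the 16 macrophage genes, 2.25 for neutrophil markers and -2.64 for adipocyte markers.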

How the data were processed

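The authors deposited a table of expected counts, that is, estimated reads per gene that were not normalized, with 1 column per library. They also deposited RPKM values made from them. Partek, cutadapt, STAR, SAMtools and HISAT2 were used, with builds hg19 and mm10, per the submitters' processing notes, which give no roles. Read counter, annotation, strand setting and read length: not given in the sources used here. Of the deposited counts, 29.5% (M2+GANT61) and 29.8% (M2+DMSO) had a fractional part, and they were rounded to whole numbers. Columns were tied to libraries by the treatment in their names, since the numbers in those names did not match the titles.

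Counts were scaled by TMM in edgeR 4.0.16 (R 4.3.3). Ratios used a prior count of 0.5 and exact Clopper-Pearson 95% intervals (scipy 1.17.1), conditional on each gene's total. Ratios of 2 genes' ratios have a Wald interval on the log scale, and level orders exact Poisson intervals. Without molecular identifiers, reads are not independent molecules, so intervals cover counting error only. The interval and call steps were tested on simulated counts with Poisson spread only. That is the spread the intervals assume, so the test checks the code and not replicate spread. Levels between genes were compared only in RPKM.

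Genes named were all 9 CSF genes, up to 3 called members per direction of each pathway list and the 2 most abundant markers of each cell type. Others were chosen after their values were seen: Xist, Pycard, overlapping or neighbouring genes, and further members of these lists. The genes and lists were chosen with earlier results of these data known. Likeness of pattern cannot be measured over 2 libraries. Coordinates and transcripts came from GENCODE M21 (GRCm38). The B cell marker Ighm was not analysed here. Alternatives are scalings, prior counts, RPKM, floors and the fold threshold.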

Additional observations from a re-analysis of the deposited data

How the results depend on the processing

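With the macrophage median set to 1, a scaling that shifts the median log2 ratio of all genes considered from -0.01 to -0.99 by construction, the ratio of Csf2 turned to 0.801. Under it the ratios were 0.753 for Csf1, 0.402 for Il34, 1.32 for Csf1r, 1.22 for Csf2ra, 1.55 for Csf2rb, 1.57 for Csf2rb2, 3.22 for Csf3 and 2.03 for Csf3r. The calls became 4 higher (Csf3, Csf2rb, Csf2rb2 and Csf3r) and 1 lower (Il34) of the 9, and 369 higher and 11114 lower of all genes, so 3.21% of calls were higher, against 57.9% with TMM. Total counts gave 1.44 for Csf1 and 2.53 for Csf1r, and the upper quartile 2.54 for Csf1r. With a fold threshold of 2, 972 genes were higher and 595 lower, against 1972 and 1436, and 6 of the 9, without Csf2. A floor of 5 CPM also left 6, without Csf2. The other 69 of 81 ratios, over the 9 genes and 9 alternatives of scaling, prior count, rounding and RPKM, stayed within their main counting interval. No paired analysis was possible because each group holds 1 library, and no library could be left out. Depth limits Csf2, with 55 and 79 reads, most.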
